A study of Mus musculus with 15 samples.

Results

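The gene dosage of Actb, the beta-actin gene, was examined at day 14 by placing the heterozygote (HET, 1 functional copy) on the line between wild type (WT, 2 copies) and knockout (KO, 0 copies). All libraries labelled day 14 were taken, 9 of the 15 libraries of the series, with 3 libraries in each genotype. The whole count table was fitted and 15296 genes were tested for a HET level away from the midpoint of WT and KO. The cells were mouse embryonic fibroblasts of strain BALB/c, from embryos aged 10.5 days, carrying beta-actin as +/+, +/- or -/-, obtained from a collaborating laboratory. All 3 genotypes had the same treatment: confluent cells on Matrigel were moved at day 0 into an osteoblast differentiation medium with dexamethasone, a glucocorticoid, and forskolin, which raises cAMP, and RNA was taken 14 days later. The other 6 libraries are WT and KO at day 4, and no HET library of day 4 was analysed here.

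Beta-actin is one of the 2 cytoplasmic actins of most cells. Monomeric actin polymerises into filaments, and it also holds the MRTF coactivators away from the transcription factor SRF, whose targets include actin genes themselves. Nuclear actin is a subunit of chromatin remodelling complexes. In a dosage series, a graded gene takes a level in the heterozygote between those of the homozygotes, a dominant or recessive pattern puts the heterozygote with one of them, and a heterozygote-specific pattern puts it outside both.

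Reads counted in genes ranged from 19.9 to 24.8 M per library at day 14. Levels are CPM, counts per 1 M counts of the scaled library, differences are log2 values ± SE, and the deviation of HET is its log2 level minus the mean of the log2 levels of WT and KO. Whether a replicate was a culture of its own, and how many embryos or clones gave the cells of a genotype, is not in the labels. The p-values below are therefore about the spread between these libraries, which may be technical, and an effect of Actb copies cannot be told apart from a different origin of the cells. In bulk RNA, fewer cells of a type and less RNA per cell cannot be told apart. HET replicate 2 stood apart: the chi-square per degree of freedom against HET replicates 1 and 3 was 50.1 and 50.4, against 2.89 between replicates 1 and 3, 5.02 to 18.6 within WT and 2.27 to 2.57 within KO. Ribosomal protein genes took 4.71% of its counts, against 3.27% and 3.32% in the other HET libraries. The share of counts on mitochondrially encoded genes was 0.484% to 0.542% in WT, 0.729% to 0.851% in HET and 1.08% to 1.12% in KO. Osteoblast genes were read only in part, with 19 of 28 listed tested. Runx2, Alpl, Col1a1, Sparc and Spp1 were counted in all 3 genotypes, and Col1a2 had 20 counts in WT, 30484 in HET and 8 in KO. Sp7, Ibsp, Dmp1, Mepe and Bglap had at most 10 counts over the 3 libraries of any genotype. Bglap2, Postn, Omd and Tnfrsf11b had at most 12.

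Actb itself lay at the arithmetic midpoint of WT and KO. Its CPM were 2947, 2974 and 3067 in WT, 1488, 1642 and 1437 in HET, and 46.5, 43.0 and 44.6 in KO. The genotypes did not overlap, and the HET mean of 1522 stood beside an arithmetic midpoint of 1520. On that linear scale the difference was 0.00 log2 units (adjusted p = 0.981, from the edgeR fit). On the log scale, where the midpoint is the geometric mean of 366 CPM, the same HET level was 2.06 ± 0.05 higher (edgeR adjusted p = 6.51e-15). The call on a gene can therefore turn on the scale, most of all where WT and KO are far apart.

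The other actins did not sit where Actb did. Actg1, the gamma cytoplasmic actin, had 723, 855 and 858 CPM in WT, 1179, 1636 and 1164 in HET, and 2516, 2482 and 2485 in KO. These levels were in order without overlap, opposite to Actb. The deviation from the log midpoint was -0.10 ± 0.09 (edgeR adjusted p = 0.343). Without HET replicate 2, the library at 1636 CPM, it was -0.28 and passed the threshold. From the arithmetic midpoint the deviation of Actg1 was -0.32, which passed as lower with all libraries kept. Acta2, the smooth muscle alpha-actin, had 25.1, 25.9 and 26.6 CPM in WT, 72.0, 83.4 and 69.5 in HET, and 499, 491 and 475 in KO. It was graded too, but nearer to WT, at -0.59 ± 0.06 from the log midpoint (edgeR adjusted p = 6.8e-07) and at -1.78 from the arithmetic one. Actg2, the smooth muscle gamma-actin, had 2 counts over the WT libraries, 7 in HET and 376 in KO, and the striated muscle actins Acta1 and Actc1 were too low to test. Actin genes are close in sequence, so counts are uncertain wherever reads were shared.

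**Figure D1:**
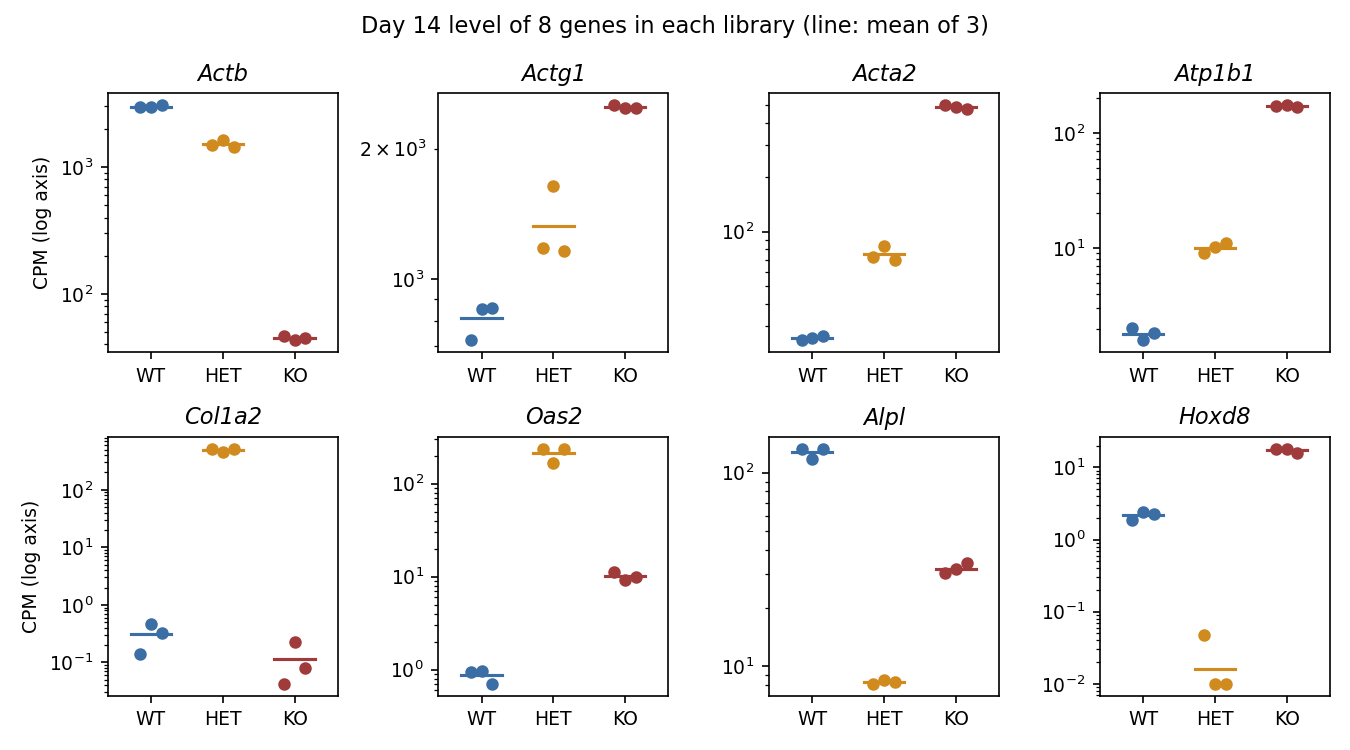
Level of 8 genes in each day 14 library in CPM on log axes, by genotype, with a point per library and a line at the mean of 3. Actb falls and Actg1, Acta2 and Atp1b1 climb from WT through HET to KO, Col1a2 and Oas2 are highest in HET, and Alpl and Hoxd8 lowest, the HET libraries of Hoxd8 without a count being drawn at 0.01.

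HET deviated from the log midpoint in 8836 genes, 57.8% of those tested (edgeR quasi-likelihood test, Benjamini-Hochberg adjusted p at most 0.05). The deviation was upward in 4523 genes (29.6%) and downward in 4313 (28.2%). The median deviation over all genes was 0.01, with quartiles at -0.38 and 0.35, and the median SE was 0.10. Many deviations were small: 1024 genes were at least 2-fold above the midpoint and past the threshold, and 1328 at least 2-fold below. Against the arithmetic midpoint, 3999 genes (26.1%) were higher and 5054 (33.0%) lower. The arithmetic midpoint is never below the geometric one, so the split shifts downward by construction: 492 genes higher on the log scale did not pass on the linear scale, 709 passed as lower on the linear scale alone, and 32 changed side. The pairwise tests called 63.1% of genes between KO and WT (30.9% higher in KO, 32.2% lower), 58.3% between HET and WT (28.3% higher in HET, 29.9% lower) and 59.5% between HET and KO (30.1% higher in HET, 29.4% lower).

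By the pairwise tests more genes lay outside both homozygotes than were graded, a class that needs all 3 tests to pass. Genes with HET between WT and KO can also fall near WT, near KO, or past between KO and WT alone. All pairwise comparisons share libraries, so these classes are a description of the 3 groups, with no test between them. HET was above both WT and KO, each at adjusted p of at most 0.05, in 2312 genes (15.1% of those tested) and below both in 2366 (15.5%). A graded level, with all 3 pairwise tests past in one order, was found in 1326 genes (8.67%), of which 664 went up from WT to KO and 662 down. HET was near WT in 2597 genes (17.0%), where KO differed from both, and near KO in 2473 (16.2%), where WT differed from both. A further 651 genes (4.26%) passed between KO and WT alone, 936 (6.12%) in 1 comparison with HET but not between KO and WT, and 2635 (17.2%) in none. Counted by libraries alone, all 3 HET libraries lay above all 6 others in 2275 genes (14.9%) and below in 2286 (14.9%), and the genotypes were in order without overlap in 1300 (8.50%). Without HET replicate 2, 2620 genes were above both, 2622 below both and 1702 graded. Among the graded genes, 916 (69.1%) were not past the midpoint test, 232 were higher than the log midpoint and 178 lower.

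**Figure D2:**
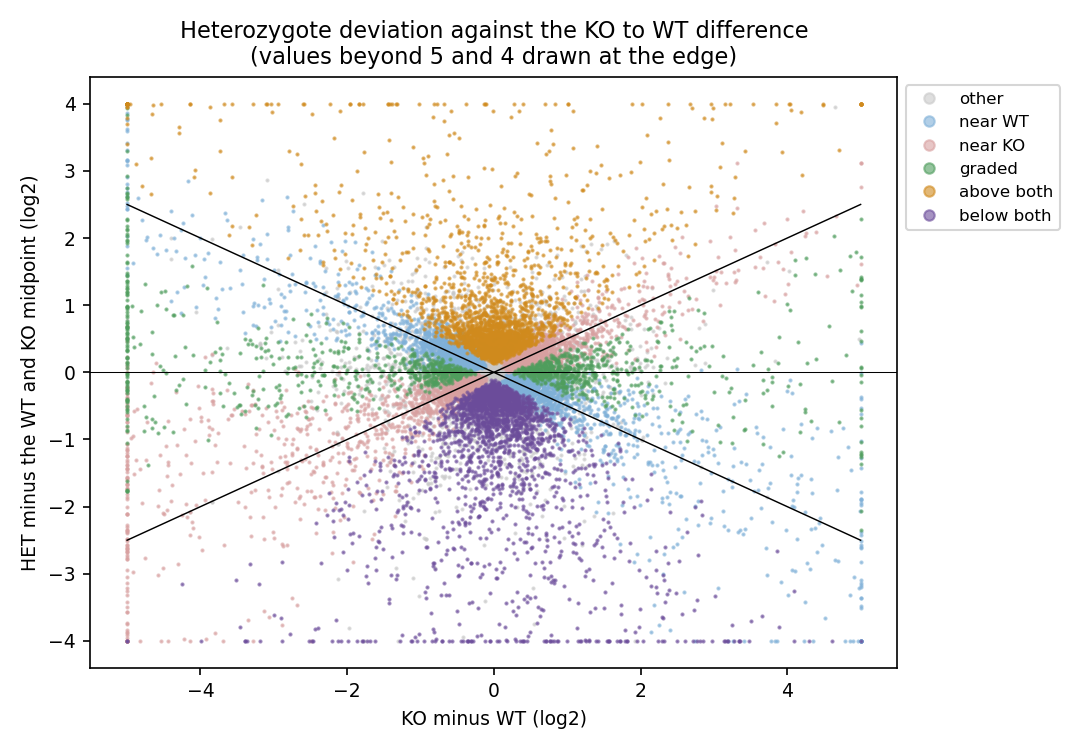
Deviation of HET from the log midpoint (vertical axis, log2) against KO minus WT (horizontal axis, log2) for 15296 genes, a point per gene coloured by class. The oblique lines mark HET equal to WT or to KO, so genes above both fill the upper sector, genes below both the lower sector, and graded genes the left and right sectors.

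Among the 3237 genes with at least a 2-fold difference between KO and WT, the HET share of the distance from WT to KO, 0 at the WT level and 1 at the KO level, had a median of 0.49 and quartiles of 0.08 and 0.89. It lay between 0.25 and 0.75 in 32.7% of these genes, from 0 to 0.25 in 13.4% and from 0.75 to 1 in 13.3%. It was under 0 in 21.3% and over 1 in 19.3%, so in this set HET lay between WT and KO more often than outside. Without a fold minimum 25.5% of 9653 genes lay between 0.25 and 0.75, with 27.4% under 0 and 24.6% over 1. In that larger set HET lay outside slightly more often than between. With at least 4-fold, 35.8% of 1577 lay between 0.25 and 0.75. As a whole, the HET transcriptome was about as far from WT and from KO as these were from each other. The root mean square log2 distance over genes was 1.12 from WT to HET, 1.17 from HET to KO and 1.27 from WT to KO, and HET was 0.949 from the midpoint. The deviation of HET took 42.5% of the sum of squares between the 3 genotype means, a share that is 0 when HET is midway and 50 when the 3 means are equally far apart. Leaving out each library in turn gave 41.8% to 43.3%.

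**Figure D3:**
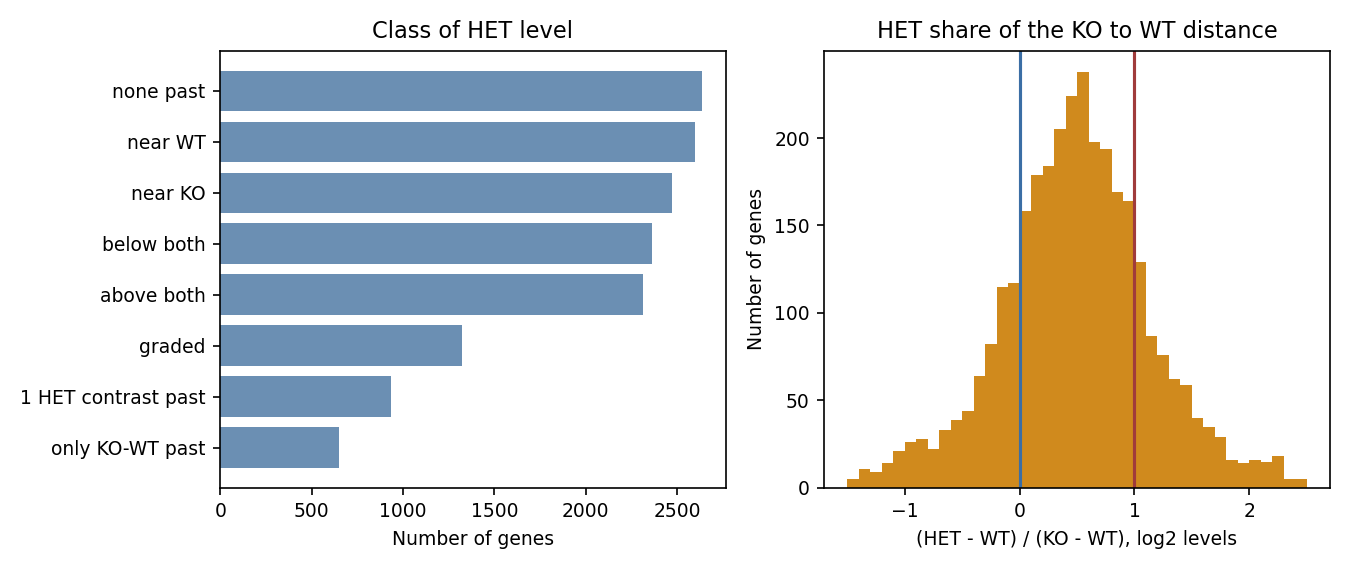
Left, number of genes in each class of HET level. Right, HET share of the log2 distance from WT (blue line at 0) to KO (red line at 1) for genes with a KO to WT difference of at least 2-fold, drawn from -1.5 to 2.5 with 56 genes below and 32 above that range, with its peak near 0.5 and tails on both sides.

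Graded genes spanned transporters, immune genes and metabolic factors. Atp1b1, a beta subunit of the sodium pump (chromosome 1, 164437109 to 164458355), had 2.01, 1.58 and 1.82 CPM in WT, 9.01, 10.3 and 11 in HET, and 170.5, 174 and 168 in KO. It was graded without overlap, but HET was 0.80 ± 0.09 below the log midpoint (edgeR adjusted p = 1.68e-07). Ccl8, a monocyte-attracting chemokine, had 0.607, 0.696 and 0.841 CPM in WT, 7.76, 13.6 and 9.38 in HET and 31.5, 27.5 and 29.4 in KO, and HET was 1.15 ± 0.20 above the log midpoint (edgeR adjusted p = 9.3e-05). Hif3a, a hypoxia-inducible factor subunit, had means of 0.0934, 1.01 and 13.1 CPM in WT, HET and KO, with HET at -0.14 ± 0.48 from the midpoint (edgeR adjusted p = 0.868). Tmco4, the complement gene C4b and the rhomboid protease gene Rhbdl2 were also among the graded genes highest in KO, at -1.25, -1.37 and -1.18 from the log midpoint. The largest graded decreases from WT to KO ended at almost no counts, so their log midpoint rests on a few reads. Igf2, an insulin-like growth factor, had 1095 counts over the WT libraries, 16 in HET and 3 in KO. Fendrr, a long noncoding RNA, had 921, 27 and 1, and Rnf144a, a ubiquitin ligase gene, 1363, 131 and 0. U90926, Fam213a and Fam213b had mean levels of 34.9, 12.1 and 25.3 CPM in WT and 0.532, 1.06 and 0.0936 in HET.

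Among other graded genes, Sox9, the master factor of cartilage, had 1.68, 1.53 and 2.1 CPM in WT, 20.2, 20.1 and 20 in HET, and 31.5, 32.1 and 27.9 in KO. HET was thus close to KO on the log scale, 1.45 ± 0.11 above the midpoint (edgeR adjusted p = 1.45e-08), and 0.32 above the arithmetic midpoint. Fabp4, the adipocyte fatty acid binding protein, followed the same form, with 13.7, 262 and 419 CPM and a deviation of 1.79 ± 0.12 (edgeR adjusted p = 2.97e-09). Cdh11, the osteoblast cadherin, went the other way with 33.3, 11.8 and 2.51 CPM. Cyba, the p22phox subunit of the NADPH oxidase, had 239, 274 and 290 CPM in WT, 128, 191 and 129.5 in HET, and 0.211, 0.503 and 0.514 in KO. The HET mean was 55.8% of that of WT, beside 50.8% for Actb.

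Some genes were on in 1 homozygote alone. Those given next were taken from the classes near WT and near KO, so HET matches 1 homozygote by that choice. Other genes nearly without counts in KO, such as Rnf144a, Igf2 and Fendrr above, were graded. Msx1, a homeobox factor of limb and craniofacial mesenchyme, had 21.4, 23.2 and 25.4 CPM in WT, 25.7, 28.4 and 24.1 in HET, and 1 count in KO. HET did not differ from WT by the test (0.16 ± 0.11, edgeR adjusted p = 0.243). Klra4, an NK receptor gene, Slc6a12, a betaine transporter gene, Sgk2 and Spink8 had 845 to 1826 counts over the KO libraries and at most 2 counts in WT and in HET. On the other side, Zic1, a zinc finger patterning factor, had 54.4, 52.5 and 49.8 CPM in WT, 3 counts in HET and none in KO, at least 1233-fold lower in KO with that group set at 3 counts. Mdk, a heparin-binding growth factor, Il19, a cytokine, and Aplp1 had 27.7, 28.1 and 21.8 CPM in WT and at most 0.114 and 0.151 in HET and KO. Rps4l had 835 counts in WT, 1 in HET and none in KO, and its reads may be shared with the parental ribosomal protein gene.

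Several genes above both homozygotes went from almost no reads in either to a high level in HET. Col1a2, whose product joins that of Col1a1 in type I collagen (ENSMUSG00000029661, chromosome 6, 4504814 to 4541544, plus strand), had 0.140, 0.464 and 0.327 CPM in WT, 517, 447 and 504 in HET, and 0.0423, 0.229 and 0.0791 in KO. HET was 10.60 ± 0.35 above WT (edgeR adjusted p = 1.02e-15) and 12.02 ± 0.55 above KO (edgeR adjusted p = 3.63e-16). Its partner Col1a1 was high in all genotypes, at 1004 ± 51.5 CPM in WT, 1610 ± 153 in HET and 971 ± 13.9 in KO (SD, n = 3), and 0.70 ± 0.05 above the midpoint in HET (edgeR adjusted p = 1.2e-08). Scara5, a ferritin receptor, had 11 CPM in WT, 215 in HET and 13.3 in KO, a deviation of 4.16 ± 0.06. Cybb, the catalytic gp91phox subunit of the NADPH oxidase, had 0.280, 0.186 and 0.187 CPM in WT, 51.1, 38.0 and 48.4 in HET and 3 counts in KO, and was 7.69 ± 0.47 higher in HET than in WT (edgeR adjusted p = 2.56e-12). Its partner Cyba, above, was graded.

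Other genes of this kind were Nrn1, a neurite growth factor, Dmrt2, a transcription factor of the somite, Pid1 and the raft protein gene Rftn1, which were 6.48, 6.27, 4.97 and 4.94 above WT on the log2 scale, with 1, 0, 1 and 0 counts in KO. Rps2, a ribosomal protein of the small subunit, had 33.0 CPM in WT, 983 in HET and 25.3 in KO, but it has near-identical copies in the genome and its count is uncertain. In Mmp13, the collagenase of hypertrophic cartilage and osteoblasts, the homozygotes were far apart and HET above both, with 999, 1020 and 989 CPM in WT, 4071, 4289 and 4127 in HET and 43.6, 44.1 and 41.6 in KO. The deviation was 4.32 ± 0.04 (edgeR adjusted p = 1.33e-18).

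Several genes below both homozygotes were nearly without reads in HET and well read in WT and KO. Hoxd8, a homeobox gene (ENSMUSG00000027102, chromosome 2, 74704615 to 74707933, plus strand), had 1.87, 2.41 and 2.24 CPM in WT, 1 count over the HET libraries and 17.7, 18.1 and 15.9 CPM in KO. The ratio of WT to HET was 135, with a 95% counting interval of 23.8 to 5370 that covers counting error only. Lrfn3, a synaptic adhesion protein, had 12.4, 11.5 and 12.6 CPM in WT, 0, 0.105 and 0.180 in HET, and 8.67, 9.83 and 9.72 in KO, a deviation of -6.72 ± 0.59 (edgeR adjusted p = 3.93e-12). Stxbp6, which binds SNARE proteins, had a mean of 55.5 CPM in WT, 0.317 in HET and 12 in KO, and Robo1, a receptor for Slit guidance cues, had 41.2, 0.552 and 16.9. Cers4, a ceramide synthase, had 16.5, 0.613 and 54.2 CPM, and Arap2, a GTPase regulator, 14.6, 0.344 and 43.0. Bcl6b, Kif1a, Plcg2 and Rab15 were -6.50, -6.20, -5.34 and -4.90 from the midpoint. Alpl, the tissue-nonspecific alkaline phosphatase that osteoblasts use to mineralise matrix, belonged to the same class with 132, 118 and 133 CPM in WT, 8.10, 8.52 and 8.25 in HET and 30.2, 31.6 and 34.0 in KO, a deviation of -2.95 ± 0.08 (edgeR adjusted p = 8.09e-14). The HET mean was 6.49% of that of WT.

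Day 4 gave a wider range of levels to set HET against. Of the 2312 genes above both homozygotes at day 14, 1310 (56.7%) had all 3 HET libraries above all 12 other libraries, those of WT and KO at day 4 included. Of the 2366 genes below both, 1203 (50.8%) had them below all 12. With HET at least 2-fold beyond the nearer homozygote, the classes held 467 genes above (3.05% of those tested) and 673 below (4.40%), of which 365 (78.2%) and 343 (51.0%) lay outside all 12.

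Interferon response genes were higher in HET almost without exception. Interferons signal through JAK kinases to transcription factors that bind the interferon response element of target promoters. Of 36 effector genes tested, 34 were higher than the midpoint and 1 lower, against 29.6% and 28.2% of all genes, and 29 were above both homozygotes. The median deviation was 1.65, against 0.01 over all genes, with median differences of 2.33 from WT and 1.01 from KO. Without HET replicate 2 the same counts were 34, 1 and 29, with a median of 1.60. Oas2, an oligoadenylate synthetase (ENSMUSG00000032690, chromosome 5, 120730333 to 120749853, minus strand), had 0.934, 0.974 and 0.701 CPM in WT, 234, 165 and 237 in HET and 11.1, 9.10 and 9.96 in KO. It was 6.16 ± 0.16 above the midpoint (edgeR adjusted p = 4.93e-15). Trim30a, a TRIM family protein with close paralogs, had 2.24, 1.58 and 1.59 CPM in WT, 115, 101 and 111 in HET and 11.2, 11.6 and 11.7 in KO.

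Promoters of 2 members of this group, chosen as the members with the smallest adjusted p that hold GAAA, any 2 bases and GAAA on either strand, are shown because the members move together. The letters, in capitals, are the core of the interferon response element, and the 250 bases before the RefSeq start site are given 5′ to 3′ on the gene's strand, on GRCm38.p6.
Trim30a promoter, chr7:104465194-104465443, minus strand: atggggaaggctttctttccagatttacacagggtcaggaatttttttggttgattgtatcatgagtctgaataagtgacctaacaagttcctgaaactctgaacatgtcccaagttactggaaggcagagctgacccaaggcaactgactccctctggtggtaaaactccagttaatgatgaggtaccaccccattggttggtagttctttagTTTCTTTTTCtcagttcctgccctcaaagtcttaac
Oas3 promoter, chr5:120777660-120777909, minus strand: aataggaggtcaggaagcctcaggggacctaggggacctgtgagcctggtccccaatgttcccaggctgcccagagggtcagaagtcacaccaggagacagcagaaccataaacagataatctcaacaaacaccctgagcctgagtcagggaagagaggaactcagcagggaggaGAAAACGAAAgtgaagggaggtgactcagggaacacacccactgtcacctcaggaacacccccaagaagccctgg
The motif started 36 bases before the start site in Trim30a, where the gene's strand carries the reverse complement, and 75 bases before it in Oas3. Oas3 had 9.57, 8.40 and 8.41 CPM in WT, 151, 112 and 147 in HET and 43.7, 41.2 and 45.8 in KO. In windows of 250 bases before to 50 after the start, RefSeq promoters were at hand for 10793 of the tested genes, of which 3.76% held the motif on either strand. The shares were 16 of 27 in the interferon effectors and 9 of 10 in the GBP and IRG GTPases. Among genes above both homozygotes it was 6.03%, among those above by at least 2-fold 11.4%, among genes below both 2.75%, and among graded genes 4.13%. A match of letters is a description and not a bound site.

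Among the 36 interferon effectors, KO was itself higher than WT in 28 and lower in 2, with a median difference of 1.18. HET stood above both in 29 and was lower than KO in 4. Ifit1, which binds foreign RNA, had 37.2 CPM in WT, 189 in HET and 77.0 in KO, and Isg15, the ubiquitin-like modifier, had 101, 182 and 107. Bst2, tetherin, had 244, 526 and 160 CPM, with 676 in HET replicate 2 and 444 and 458 in the others. Mx1, a dynamin-like antiviral GTPase, was graded with 0.295, 4.65 and 10.8 CPM, Eif2ak2, the RNA-activated kinase, was near KO at 0.13 ± 0.05 above the midpoint (edgeR adjusted p = 0.0334), and Ifi205 was lower than the midpoint by -1.04 ± 0.27 (edgeR adjusted p = 0.00351). Among sensors and signalling genes 17 of 26 were higher and 2 lower, with 13 above both. Stat2 and Irf7, which carry the signal, were both 1.29 above the midpoint, and Tmem173, the DNA sensing adaptor STING, 2.06. The kinases Jak1 and Jak2 were the 2 lower members, at -0.49 and -0.46. Of 16 interferon-inducible GTPases of the GBP and IRG families, 15 were higher, 12 of them above both, and Gbp2 was below both at -0.46 ± 0.07 (edgeR adjusted p = 4.11e-05).

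MHC class I presentation genes were high in HET through a different order of the homozygotes. Of 18 genes tested, 17 were higher than the midpoint and none lower, with 9 above both and 7 near WT. The median difference was 0.22 from WT and 1.31 from KO. H2-K1, a classical heavy chain, had 459, 502 and 529.6 CPM in WT, 1319, 1675 and 1303 in HET and 236, 239 and 222 in KO. B2m, the invariant light chain, had 1319, 1931 and 884 CPM. H2-Q7 had 112, 274 and 2.67 CPM and H2-T23 16.8, 169 and 39. Class I genes are alike in sequence, so reads may be shared among them. Macrophage markers were mostly low, but not all. C1qa, C1qb and C1qc had at most 1 count in any genotype. Ptprc had 17, 5 and 1 counts in WT, HET and KO, Aif1 18, 5 and 1, and Adgre1 5, 3 and 0. Spi1 had 15, 26 and 14 counts, and Mrc1 7, 1 and 47. Cd68 had means of 6.27, 7.08 and 37.9 CPM, and Cd14, which fibroblasts also express, was above both at 1.58. Lyz2, another marker, was almost without reads in HET, with means of 1.27, 0.0761 and 2.16 CPM in WT, HET and KO. Of the 15 macrophage genes listed 4 were tested, of which 1 was higher than the midpoint and 2 lower, with a median of -0.21. The summed level of the list was 37.3 to 39.7 CPM in WT, 141 to 177 in HET and 119 to 127 in KO, most of it Cd14.

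Lipid synthesis genes went together in the opposite direction. SREBP transcription factors, held in the endoplasmic reticulum by sterols, drive both the cholesterol and the fatty acid pathways. Of 25 cholesterol genes tested, 21 were lower than the midpoint and 3 higher, with 17 below both homozygotes and a median deviation of -0.61. Without HET replicate 2, 20 were lower, 3 higher and 18 below both, with a median of -0.56. The KO and WT levels of this list differed little, with a median of -0.03. Hmgcs1, the synthase of the mevalonate precursor, had 542, 571 and 552 CPM in WT, 311, 321 and 301 in HET and 498, 496 and 491 in KO, without overlap. It was -0.75 ± 0.04 from the midpoint (edgeR adjusted p = 1.23e-10). Idi1, an isomerase of the pathway, had 503 CPM in WT, 287 in HET and 805 in KO. Sqle, the squalene epoxidase, and Ebp were higher than the midpoint, at 0.18 and 0.48.

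The Hmgcs1 promoter is shown as the cholesterol gene that holds the letters TCACNCCAC, given in capitals, which resemble the sterol response element. It is on GRCm38.p6, taken from RefSeq, in the same layout.
Hmgcs1 promoter, chr13:119690101-119690350, plus strand: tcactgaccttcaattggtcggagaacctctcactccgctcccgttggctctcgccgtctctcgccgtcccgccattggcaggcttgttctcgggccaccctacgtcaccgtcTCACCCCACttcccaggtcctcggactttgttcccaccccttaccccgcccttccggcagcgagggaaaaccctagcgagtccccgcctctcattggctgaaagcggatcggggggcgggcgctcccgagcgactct
The motif started 137 bases before the start site. On either strand it was found in 1 of 17 cholesterol promoters, in none of 12 fatty acid promoters and in 1.41% of the promoters of all tested genes. This is a count of exact letters that are rare in all promoters, and SREBP binding was not tested.

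In the fatty acid list 13 of 15 genes were lower and 1 higher, with 10 below both and a median of -0.66. The medians were -0.67 from WT and -0.85 from KO. Scd2, a stearoyl-CoA desaturase, had 1561, 1502 and 1402 CPM in WT, 898, 768 and 877 in HET and 2177, 2175 and 2159 in KO, and Scd1 had means of 349.7, 173 and 465. Fasn, the fatty acid synthase, was instead near WT, at 471, 514 and 1426 CPM. Srebf1 and Srebf2, which encode the SREBPs, were both below both homozygotes, at -0.63 and -0.51.

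**Figure D4:**
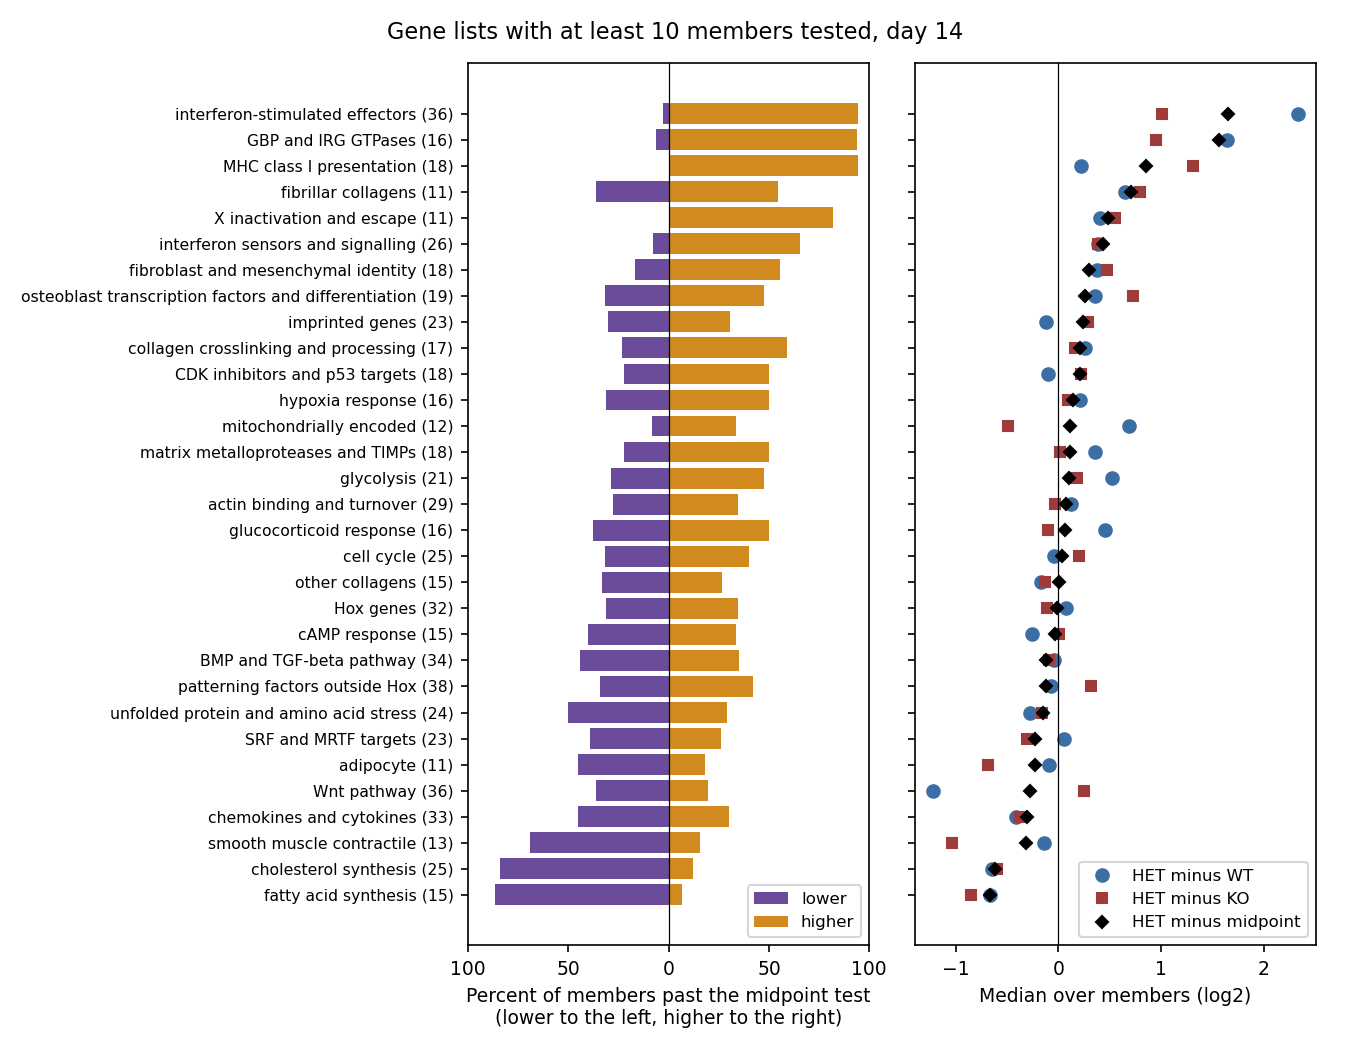
Gene lists with at least 10 tested members, with the number tested in parentheses. Left, percent of members lower and higher than the log midpoint at adjusted p of at most 0.05. Right, median over members of HET minus WT, HET minus KO and HET minus the midpoint (log2). Interferon, GTPase and MHC class I lists lie at the top and fatty acid and cholesterol synthesis at the bottom.

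Collagen genes were divided. Of 11 fibrillar collagen genes, 6 were higher and 4 lower than the midpoint, against 29.6% and 28.2% of all genes, and all 6 higher members were above both. Col3a1, of type III collagen, had 74.2, 75.7 and 69.3 CPM in WT, 450.1, 428 and 444 in HET and 102, 105 and 106 in KO, a deviation of 2.34 ± 0.04 (edgeR adjusted p = 1.5e-16). Col5a1, Col5a2 and Col11a2 were 0.82, 0.97 and 0.89 above the midpoint. The summed level of the list was 2835 to 3306 CPM in HET, 1467 to 1638 in WT and 1356 to 1379 in KO. Of 15 other collagen genes, 4 were higher and 5 lower, with 1 above both, 4 below both and a median of 0.01. Col8a1, a network collagen, had 202, 42.1 and 174 CPM, and Col5a3 was graded downward to KO. Among processing enzymes 10 of 17 were higher and 4 lower, with Loxl2, a crosslinking oxidase, at 165, 250.1 and 87.1 CPM, whereas Adamts2, which cuts the procollagen N-propeptide, was 73.3, 12.8 and 49.3. Of 18 matrix metalloproteases and inhibitors, 9 were higher and 4 lower. Mmp14, which activates the Mmp2 proenzyme, had 126, 123 and 131 CPM in WT, 466, 469.5 and 473 in HET and 136, 137 and 139 in KO, and Mmp2 was 2.01 above the midpoint. Mmp9 was -3.99 ± 0.29 from it (edgeR adjusted p = 6.75e-10).

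Osteoblast genes divided. Of 19 tested, 9 were higher and 6 lower than the midpoint, against 29.6% and 28.2% of all genes. Above both were 7 and below both 2, against 15.1% and 15.5%. The median was 0.26, and without HET replicate 2 it was -0.16, with 9 higher and 6 lower. Runx2, the factor required for the osteoblast lineage, was near KO at 20.6, 30.6 and 31.8 CPM. Sparc, osteonectin, was above both at 1409, 1803 and 1356 CPM, and Enpp1, which makes the mineralisation inhibitor pyrophosphate, at 12.2, 72.7 and 22.1. Ank, which exports pyrophosphate, had 18.4, 51.1 and 25 CPM. Spp1, osteopontin, had 1461 ± 121, 1587 ± 269 and 1742 ± 35.4 CPM (SD, n = 3), and its deviation of -0.01 ± 0.08 did not pass (edgeR adjusted p = 0.944). Without HET replicate 2, the highest library at 1898 CPM, it was -0.155 and passed (edgeR adjusted p = 0.00178), and with a correction for length and GC content it was -0.102 and passed with all libraries kept (edgeR adjusted p = 0.00483). Alpl, which breaks pyrophosphate down, was below both as described above.

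Cytoskeletal lists differed from one another. Of 13 smooth muscle contractile genes 9 were lower and 2 higher, against 28.2% and 29.6% of all genes. The median was -0.31, with a difference of -1.04 from KO and -0.14 from WT. Myl9, the regulatory light chain, had 3.36, 4.96 and 4.58 CPM in WT, 2.59, 2.63 and 2.66 in HET and 31.7, 30.6 and 29.9 in KO. It was below both, while Tagln, transgelin, was graded at 3.42, 5.53 and 18.1. The SRF and MRTF target list had 6 higher and 9 lower of 23. Graded was the most frequent class there with 7, against 8.67% of all genes. The median of this list was -0.22, and -0.09 without HET replicate 2. Fhl1, a LIM protein of muscle, had 7.83, 2.48 and 40.7 CPM, and Zyx, zyxin of focal adhesions, 132, 234 and 187. Among 29 genes of actin binding and turnover, 10 were higher, 8 lower and 11 not past, close to the 29.6% and 28.2% of all genes. Without HET replicate 2, 12 of them were higher and 13 lower. Actr3, of the Arp2/3 nucleator, was above both at 282, 462 and 400.1 CPM, and Pfn2, a profilin, below both at 24.9, 3.22 and 16.0.

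The deviations were not spread evenly over the genome. This was examined in windows of 40 neighbouring tested genes moved by 20, a choice made after seeing the data. In 137 of 733 windows the median deviation was at least 0.3 in size with HET on the same side of both homozygotes by at least 0.2, 59 upward and 78 downward. Such windows were most frequent on chromosome 4, with 30 of 47 downward, and chromosome 1, with 21 of 46 upward. The 2 highest window medians, 1.32 and 1.10, were neighbours on chromosome 7, from 51997171 to 67307330 (1.10) and from 64287653 to 78738012 (1.32), and the next was 0.74. The limits of 58 and 76 Mb used below were set from them.

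On chromosome 7, 32 of the 50 tested genes that start between 58 and 76 Mb were above both homozygotes (39 higher than the midpoint, 78.0%). Of the 37 with at least 2 CPM in a genotype, 29 were above both, 35 had a higher fitted level in HET than in WT and 33 than in KO. The median fold was 2.41 over WT and 2.45 over KO. The median per library, as log2 over the WT mean, was 1.35, 1.21 and 1.31 in the HET libraries, 0.19, 0.12 and 0.10 in KO and 0.05, -0.00 and -0.07 in WT. HET replicate 2 was the lowest of the HET medians but far from those of WT and KO, and in 28 of the 37 genes all HET libraries lay above all 6 others. The stretch began at Atp10a (58656166), a lipid flippase gene, and Ube3a, a ubiquitin ligase with 69.5 CPM in WT, 150.1 in HET and 73.7 in KO. It held Mef2a, a muscle and neural transcription factor, at 52.6, 223 and 67.4, Nr2f2, a nuclear receptor, at 33.6, 71.6 and 29.1, Chd2, a chromatin remodeller, at 52.7, 139 and 58.5, and Tjp1, of tight junctions, at 104, 387 and 158, and ended at Klhl25 (to 75874131). HET replicate 2 was lower than the other HET libraries in some of these, for example with 243 CPM of Tjp1 against 456 and 461. Igf1r was near KO at 8.75, 17.6 and 20.2. In the 145 tested genes that start between 40 and 58 Mb the median deviation was 0.01, and in the 96 between 76 and 94 Mb 0.03.

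Chromosome 4 showed a smaller and much longer shift in the other direction. Of 621 tested genes that start in its first 130 Mb, 409 (65.9%) were lower than the midpoint and 40 higher, and 279 were below both. The median deviation was -0.45, with -0.38 from WT and -0.52 from KO. Per library, over the 503 genes with at least 2 CPM in a genotype, the medians over the WT mean were -0.38, -0.36 and -0.37 in HET and 0.17 to 0.18 in KO. From 130 to 150 Mb the median deviation of 255 genes was 0.09, and past 150 Mb that of 90 genes was -0.30. Over whole chromosomes the median deviation ran from -0.35 on chromosome 4 to 0.32 on chromosome 18. No DNA measurement was analysed here, so copy number was not tested.

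**Figure D5:**
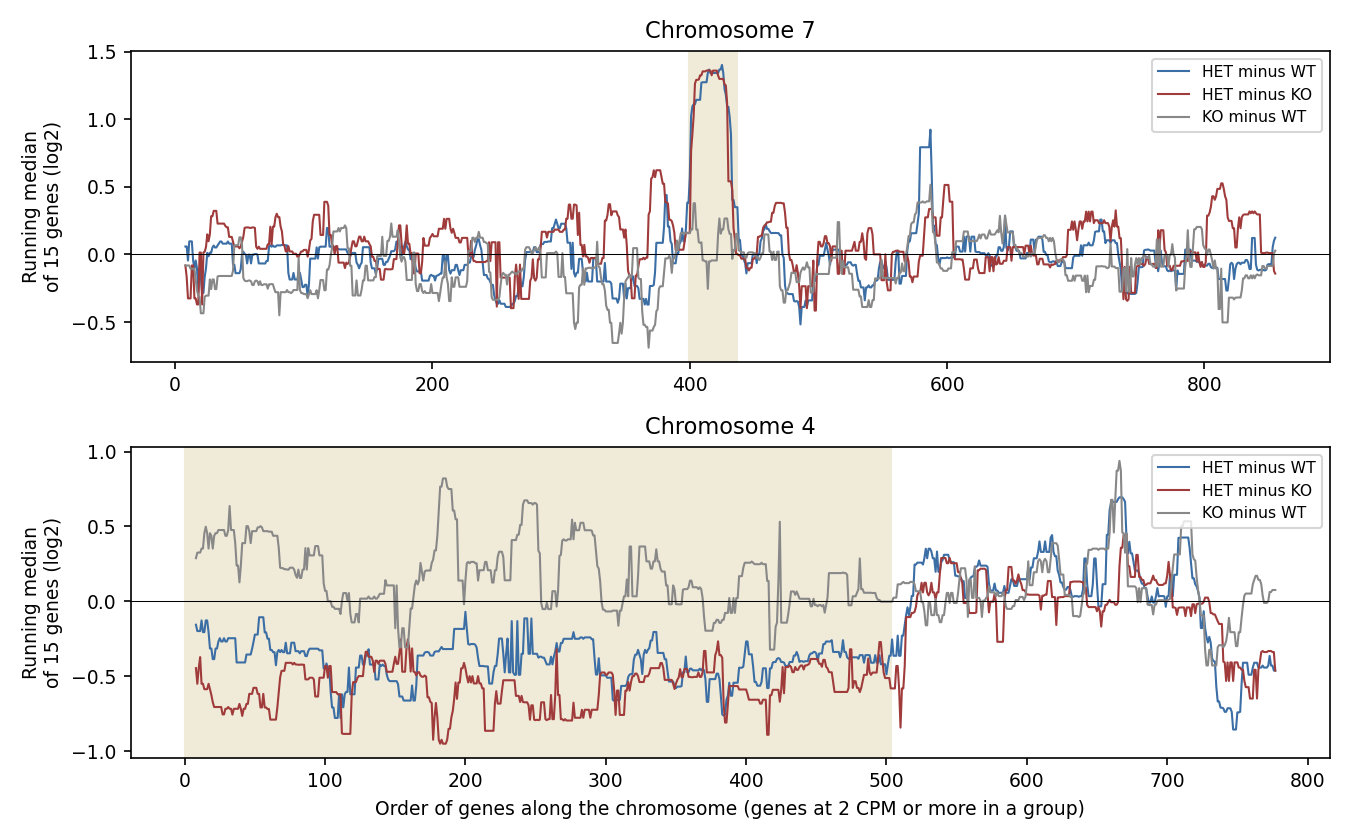
Running median over 15 neighbouring genes of HET minus WT, HET minus KO and KO minus WT (log2), in the order of genes along chromosomes 7 and 4, for genes of at least 2 CPM in a genotype. The shaded stretches are the 37 genes between 58 and 76 Mb on chromosome 7, where both HET differences exceed 1 at 27 of the 37 genes, and the genes of the first 130 Mb of chromosome 4, where both lie below 0.

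Xist set HET apart from both homozygotes. Xist, the noncoding RNA that coats the inactive X, had 195, 101 and 191 CPM in HET, with 10224 counts over its libraries, against 3 counts in WT and 1 in KO. The ratio of HET to WT was 3534, with a 95% counting interval of 1209 to 17139. HET replicate 2 had the lowest Xist level of the 3. Genes of the Y chromosome had at most 2 counts over the libraries of any genotype for each of the 9 listed. Of 486 tested X-linked genes, 243 were higher than the midpoint and 76 lower, against 29.6% and 28.2% of all genes, with a median deviation of 0.29. Autosomes reached similar values, with 250 of 482 genes higher and a median of 0.29 on chromosome 14, and 215 of 383 higher and 0.32 on chromosome 18. Among 11 genes of X inactivation and escape 9 were higher and none lower. Kdm6a, a histone demethylase that escapes inactivation, had 29.8, 27.3 and 24.4 CPM in WT, 58.3, 47.8 and 55.3 in HET and 32.3, 30.7 and 30.6 in KO. Kdm5c, another escape gene, was 0.61 ± 0.12 above the midpoint (edgeR adjusted p = 0.000354), with HET libraries at 163, 100.0 and 164 CPM and replicate 2 inside the WT range. HET thus differed from both WT and KO in Xist as well as in Actb copies, and the part of this difference in the other results was not tested.

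Patterning genes also placed HET outside both homozygotes in both directions. Of 32 Hox genes, 11 were higher and 10 lower than the midpoint, with 10 above both and 6 below both, against 15.1% and 15.5% of all genes in these classes. Of 38 patterning factors outside the Hox clusters, 16 were higher and 13 lower, with 14 above both, 6 below both and 13 near KO. Hoxc10 had 5.24, 31.9 and 0.929 CPM and Hoxc6 21.2, 32.6 and 4.68 in WT, HET and KO. Pax3, a neural crest and myogenic factor, was above both at 30.6, 81.5 and 27.8 CPM, and Irx1 at 6.09 CPM in WT and 77.8 in HET, with no count in KO. Alx1, a craniofacial factor, was below both at 6.68, 1.84 and 33.0 CPM, and Zic5 at 15.3, 0.131 and 2.74. Of 36 Wnt pathway genes 7 were higher and 13 lower, against 29.6% and 28.2% of all genes. Near KO was the most frequent class there with 12, against 16.2% of all genes. The Wnt list had a median of -1.22 from WT and 0.25 from KO. Dkk3 was above both at 6.31, 63.0 and 0.0564 CPM, and Axin2, a feedback target of the pathway, below both at 0.823, 0.162 and 4.89.

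Mitochondrially encoded genes were more often graded than outside both homozygotes. Of 12 tested, 7 were graded, all upward from WT to KO, against 8.67% of all genes, and 7 did not pass the midpoint test, with 4 higher and 1 lower. mt-Nd1 had 808, 748 and 885 CPM in WT, 1070, 1207 and 1192 in HET and 1951, 1980 and 2008 in KO, in order without overlap. It was at -0.13 ± 0.05 (edgeR adjusted p = 0.0424), a call that was lost under 8 of the alternatives. mt-Co1 was near KO at 1340, 2680 and 2566 CPM. Mitochondrial RNA also moves with RNA quality and cell state, whose part was not tested.

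Signalling molecules secreted by the cells varied widely. Il33, an alarmin, had 80.1, 82.1 and 78.8 CPM in WT, 7.76, 9.41 and 10.4 in HET and 282, 284 and 283 in KO, a deviation of -4.04 ± 0.07 (edgeR adjusted p = 2.23e-15). Cxcl1, a neutrophil chemokine, was 1596 CPM in WT, 537 in HET and 1554 in KO, so HET alone was low. Of 33 chemokine and cytokine genes 10 were higher and 15 lower, against 29.6% and 28.2% of all genes. Below both were 9, graded 7 and above both 5, against 15.5%, 8.67% and 15.1% of all genes. Among BMP and TGF-beta genes 12 of 34 were higher and 15 lower, beside the same 29.6% and 28.2%. The antagonists Fst and Grem1 were below both, Fst at 49.9, 3.8 and 18.8 CPM and Grem1 at 263, 99.6 and 256, whereas the antagonist Chrd was above both at 7.11, 11.1 and 3.48.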

How the data were processed

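RNA was sequenced from 15 libraries with an unstranded kit (TruSeq RNA v2, per the labels' protocols). Per the submitters' processing notes, TopHat2 2.1.0, HTSeq and DESeq2 were used with GRCm38.p4. The counting options are not given in these sources. The authors deposited raw read counts per Ensembl gene, 46603 identifiers in each library. Symbols and positions came from GENCODE M21, which named 46091 of them, and identifiers without a symbol held 0.0510% of counts. Genes with low counts were removed with filterByExpr, leaving 15296, and libraries were scaled by TMM. All 5 groups of 3 libraries entered 1 quasi-likelihood fit in edgeR 4.0.16 (R 4.3.3, limma 3.58.1), so day 4 contributes to the estimate of spread, and the common biological variation (BCV) was 8.33%. Contrasts were HET minus the mean log2 level of WT and KO, and the pairwise differences. HET against the arithmetic midpoint was a separate t-test, the difference of fitted levels over its approximate SE. P-values were adjusted by Benjamini-Hochberg over all genes tested, at 0.05. The fit was also run on counts simulated from its own levels and spread, with every library drawn independently. Such counts cannot show how far the replicates of these data depend on one another. Day 14 totals were 19.9 to 24.8 M counts, and intervals for ratios of counts cover counting error only.

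The genotypes and lists were chosen with earlier results of these data known, and no pattern is given as independent support. Named genes were the actins, the largest differences in each class reaching a mean of 10 CPM in some genotype and no overlap of libraries, up to 2 members per direction of every list, taken by adjusted p, and a short list of bone and control genes; other list members, and genes of the chromosome stretches, were named after their values were seen. A group with at most 3 counts was given by its counts, by a ratio with an exact counting interval (1 to 3 counts), or, at 0 counts, by a bound with the group set at 3 counts. Alternatives were DESeq2 1.42.0, RLE scaling, other filters, day 14 libraries alone, the replicate number as a block, each library left out, HET replicates 1 and 3 summed, and a correction for length and GC content. Replicate numbers did not pair the libraries. Some list members are not reported here.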

Additional observations from a re-analysis of the deposited data

How the results depend on the processing

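Counts over all genes tested, of calls and of classes, stayed within 1.5 times their values in the alternatives run. Some list counts moved further. Without HET replicate 2, for example, the lower members of actin binding and turnover went from 8 to 13. The higher members of fatty acid synthesis went from 1 to 2, and those of the adipocyte list from 2 to 1. The median of the macrophage list went from -0.21 over 4 tested genes to -0.75 over 6. Calls away from the midpoint ranged from 7724 with day 14 libraries alone to 9512 without HET replicate 2. Of the calls on genes that stayed in the alternative fit, 88.5% to 99.8% were kept with the same sign. Leaving out each library in turn gave 4276 to 4795 genes higher than the midpoint, 4014 to 4717 lower, 2152 to 2620 above both, 2172 to 2622 below both and 1139 to 1702 graded. With the replicate number as a block, 8699 genes were called, 4432 higher and 4267 lower. The numbers share no stated origin, and over 9 pairs the correlation of deviations of same-numbered libraries ran from -0.150 to 0.179. The correction for length and GC content moved the share of higher calls to 54.8%. The deviation of Spp1 passed without HET replicate 2 (-0.155) and with the correction for length and GC content (-0.102), and changed sign without WT replicate 2 (0.00754) or 3 (0.0200), without HET replicate 1 (0.0660) or 3 (0.0588), without KO replicate 1 (0.00378), and with HET replicates 1 and 3 summed (0.0685). Without HET replicate 2, the median of the imprinted list was 0.38, of the Wnt list -0.38 and of the glucocorticoid list -0.03, against 0.25, -0.28 and 0.07 with it. Setting groups of at most 3 counts at that bound changed the sign of the median in the imprinted list alone, from 0.25 to -0.04. The largest move was in the epithelial list, from -0.32 to -0.68, and the median of chemokines and cytokines went from -0.30 to -0.44.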

Other observations

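Other lists are given as counts, beside 29.6% of all genes higher than the midpoint and 28.2% lower. Of 25 cell cycle genes 10 were higher than the midpoint and 8 lower, of 21 glycolysis genes 10 and 6, and of 15 cAMP response genes 5 and 6. Of 24 genes of the unfolded protein and amino acid stress responses 12 were lower and 7 higher, with 11 below both homozygotes, and of 18 CDK inhibitor and p53 target genes 9 were higher and 4 lower. Among 16 glucocorticoid response genes 8 were higher and 6 lower, with a median of 1.09 between KO and WT.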
